A study of Mus musculus with 9 samples.

Results

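The genes described here are 10 members of the interleukin-1 (IL-1) family, chosen by symbol: the ligands Il1a, Il1b, Il18 and Il33, the receptor antagonist Il1rn, the receptor genes Il1r1, Il1r2, Il1rap and Il1rl1, and the binding protein Il18bp. All 10 were found, each in 1 row of 45535 rows that carry a symbol, and all 10 were among the 18202 genes with a mean normalized read count of at least 10. RNA came from CD103+ dendritic cells (DCs) of C57/BL6j mouse lung, taken 7 days into bleomycin treatment. Bleomycin injures the lung and is used to produce fibrosis in mice. CD103 is an integrin chain encoded by Itgae and found on type 1 conventional dendritic cells (cDC1). Lungs were digested with collagenase and the cells were pulled out on magnetic beads. One group was lysed directly (before culture, 5 samples), and the other was cultured for 18 h before lysis (after culture, 4 samples) in serum-containing RPMI with penicillin and streptomycin. Every sample therefore comes from bleomycin-treated lung, and no untreated lung is used here. Bead selection was the only purification the labels describe. The labels do not say whether samples came from separate mice, so p-values measure only the spread between these samples.

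IL-1α and IL-1β bind the same receptor, IL-1R1, which signals once the accessory chain IL-1RAP (from Il1rap) joins it. The receptor antagonist from Il1rn occupies IL-1R1 without recruiting the accessory chain, and IL-1R2 is a decoy that binds IL-1 but lacks the signalling domain. IL-33 signals through ST2 (from Il1rl1) with the same accessory chain, and IL-18 has its own receptor pair and is held back by the soluble IL-18 binding protein. IL-1β and IL-18 are made as precursors that caspase-1 cuts in the inflammasome. In lung, epithelial and stromal cells store IL-33, and myeloid cells are the main makers of IL-1β.

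Depth ran from 14.7 to 35.3 M reads in named rows, and 1 read was worth a normalized read count of 0.758 to 1.79. A normalized read count is a gene's reads divided by a factor for its sample. The 10 cDC1 markers checked were all read, with summed normalized counts of 121489 to 149327 before and 29633 to 34492 after culture. Of these markers 7 were lower and 3 higher after culture, against 34.6% and 34.2% of all tested genes. Itgae itself went from 18138 ± 1537 to 1727 ± 335 (SD, n = 5 and n = 4). Wdfy4 alone made up most of the sum before culture and went from 75716.5 ± 6275 to 4761 ± 811. The 3 higher markers were Flt3 (8170 ± 638 to 13082 ± 1988), Batf3 (511 ± 95.4 to 746 ± 96.4) and Zbtb46 (2380 ± 144 to 2868 ± 352). The groups of Zbtb46 overlapped. Markers of other cell types were read as well, and their levels are given below.

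Most of the family was lower after culture. Of the 10 genes, 7 were lower after culture, 1 was higher and 2 did not pass the threshold, which was an adjusted p of 0.05 in limma. Among all 18202 tested genes, 68.8% passed, 34.6% as lower and 34.2% as higher, so passing the threshold by itself sets no gene apart here. The median log2 change of the 10 genes was −0.83, and that of all tested genes was 0.0065. All 4 ligands with an agonist role fell, as did 3 of the 4 receptor genes. The 3 natural inhibitors divided: Il1r2 fell, Il18bp rose and Il1rn did not pass. Groups did not overlap for 6 of the 10 genes, 5 of them lower and 1 higher, against 57.3% of all tested genes (28.6% lower and 28.7% higher).

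**Figure D1:**
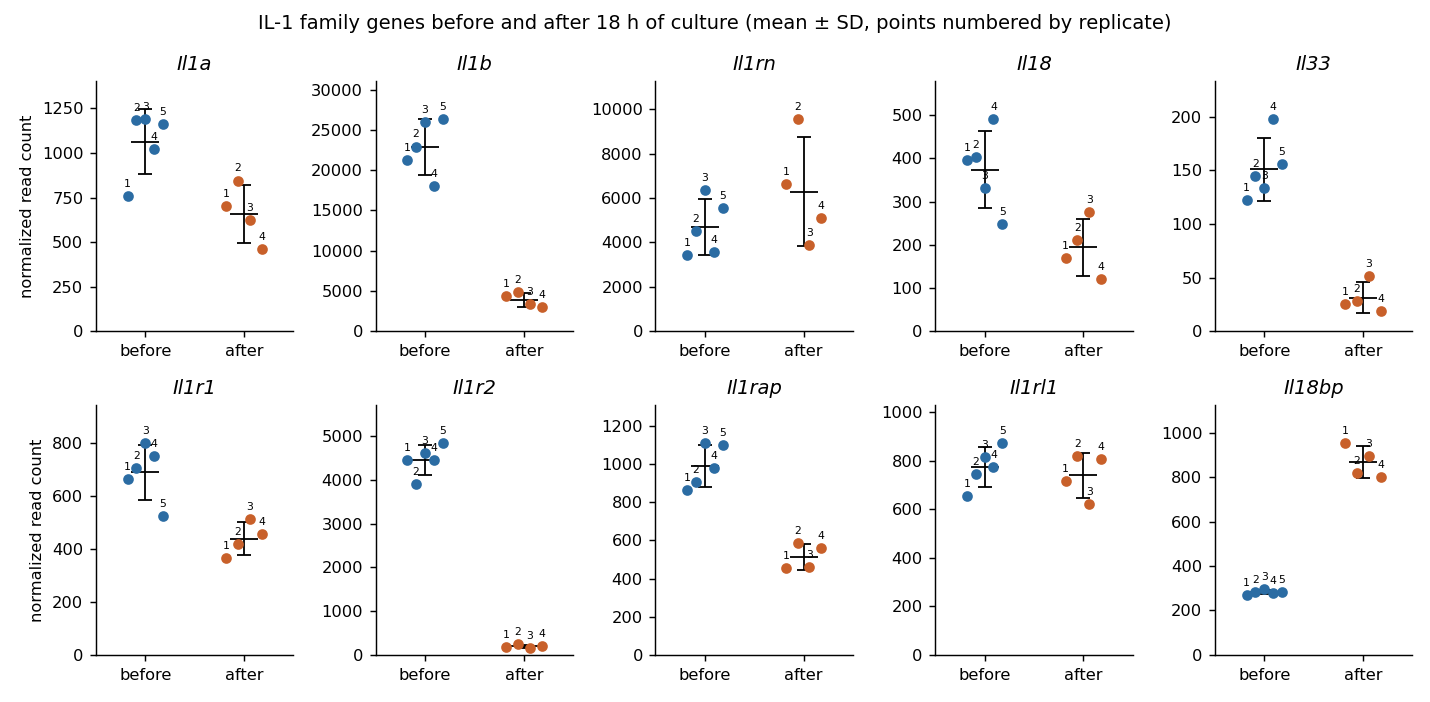
Normalized read count of each of the 10 genes (vertical axis from 0) in the 5 samples before and the 4 samples after culture, with points numbered by replicate and bars for mean ± SD. Il1r2, Il1b and Il33 sit far lower in every sample after culture, Il18bp sits higher in every one, and the groups of Il1a, Il18, Il1rn and Il1rl1 overlap.

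Il1b, the ligand secreted by activated myeloid cells, was by far the most abundant of the 10 genes per kb before culture. Its normalized read count was 21241, 22940, 25973, 18024 and 26334 in replicates 1 to 5 before culture, and 4374, 4835, 3352 and 3019 in replicates 1 to 4 after culture. The lowest sample before culture was well above the highest sample after it. The mean was 5.88-fold lower after culture, a log2 change of −2.57 (SE 0.145, limma adjusted p = 3.64e-09). Of all tested genes, 7.05% changed by more in either direction. These are bulk samples, in which fewer cells of a type and less RNA per cell cannot be told apart.

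Il1a, whose product is also active in its precursor form, fell less. It stood at 760, 1185, 1189, 1022 and 1162 before culture and at 704, 845, 623 and 458 after culture. Groups overlapped, since replicate 2 after culture was above replicate 1 before culture. The mean was 1.62-fold lower (log2 change −0.71, SE 0.169, limma adjusted p = 0.00216). After a correction for each sample's trend over GC content and transcript length, the change was −1.10 while the median of all genes moved to 0.13.

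Il33 encodes a nuclear cytokine released when cells are damaged, and was the least abundant member. Its normalized read count was 122, 145, 134, 198 and 156 before culture, and 25.6, 28.1, 51.9 and 19.0 after culture. The fewest reads behind any of these values were 25. The mean was 4.84-fold lower (log2 change −2.31, SE 0.255, limma adjusted p = 2.78e-06), and groups did not overlap. Replicate 4 was the highest of its group before culture and replicate 3 the highest after culture.

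Il18, made by many epithelial and myeloid cells, stood at 396, 403, 331, 490 and 249 before culture and at 170, 211, 277 and 121 after culture. The mean was 1.92-fold lower (log2 change −0.97, SE 0.228, limma adjusted p = 0.00194). Groups overlapped in that replicate 3 after culture exceeded replicate 5 before culture. The highest samples of each group were the same as for Il33.

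The bases before the start sites of 3 of the 4 agonist ligand genes are shown because they share a feature there. Its part in their change was not tested. RefSeq (GRCm38.p6) lists 15 start windows for the 10 genes, and each was searched on both strands over 250 bases before the start. The TATA box, spelled TATAAA, occurred in 5 of these 15 windows, and in 12.4% of all 32851 windows in the table. On the gene's own strand, with its first base 20 to 35 bases before the start, it occurred in 3 of the 15 and in 1.84% of all. The 3 windows belong to Il1a, Il1b and the downstream start of Il33. Each line gives the last 100 bases before the start, 5′ to 3′ on the minus strand of chromosome 2 for Il1a (chr2:129309973-129310072) and Il1b (chr2:129371140-129371239) and on the plus strand for Il33 (chr19:29945690-29945789). Capitals mark motif matches.
Il1a: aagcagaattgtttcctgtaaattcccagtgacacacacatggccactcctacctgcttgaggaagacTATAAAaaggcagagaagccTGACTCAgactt
Il1b: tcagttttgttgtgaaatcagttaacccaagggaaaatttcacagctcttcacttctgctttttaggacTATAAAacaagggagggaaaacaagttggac
Il33: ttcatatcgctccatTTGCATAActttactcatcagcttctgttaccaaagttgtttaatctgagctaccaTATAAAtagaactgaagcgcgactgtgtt
The second match in Il1a is to the AP-1 motif TGANTCA, found in 2 of the 15 windows and 6.75% of all windows. The first match in Il33 is to the C/EBP motif TTNNGCAA, read on the opposite strand, found in 4 of the 15 windows and 9.56% of all. The other AP-1 match lay 141 bases before the upstream start of Il1rn, in a stretch (chr2:24336660-24336759, plus strand) shown because Il1rn did not pass where Il1a fell.
Il1rn: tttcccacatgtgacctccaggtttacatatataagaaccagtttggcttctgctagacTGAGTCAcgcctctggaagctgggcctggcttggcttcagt
A match to the kB consensus was found in 1 of the 15 windows, at Il1r1 (3.90% of all windows), and none of the 15 held the CRE (TGACGTCA, 1.55% of all), PU.1 (GAGGAAGT, 2.44%) or ISRE core (2.98%) spelling searched. A match describes letters and does not show that a factor binds. The counts are per gene, so they do not show which start was used.

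Il1rn, the antagonist gene, varied most between replicates among the abundant members. Its normalized read count was 3415, 4496, 6353, 3587 and 5565 before culture, and 6611, 9547, 3873 and 5110 after culture. Groups overlapped, with replicates 3 and 4 after culture inside the range before culture. Replicates 1 and 2 after culture were above every sample before culture, replicate 2 by far. The log2 change was 0.39 (SE 0.235, limma adjusted p = 0.160), which did not pass. It passed without replicate 3 after culture (0.59, limma adjusted p = 0.0267), was 0.16 without replicate 2 after culture (limma adjusted p = 0.510), and was 0.04 after the GC and length correction (limma adjusted p = 0.899). Over all alternatives the limma adjusted p ran from 0.0225 to 0.899.

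Il18bp, the secreted inhibitor of IL-18, was the only member to rise. It stood at 270, 283, 296, 280 and 285 before culture and at 954, 818, 895 and 800 after culture. The samples of each group lay close together, with a coefficient of variation of 3.29% before and 8.23% after culture. The mean was 3.06-fold higher (log2 change 1.61, SE 0.0855, limma adjusted p = 2.06e-09), and groups did not overlap. Of its exon bases, 2.64% are also exon of Numa1 on the opposite strand. Numa1 stood at 6052 ± 425 before and 6130 ± 106 after culture (SD).

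Il1r2, the decoy receptor, had the largest change of the 10 genes. Its normalized read count was 4449, 3905, 4610, 4455 and 4849 before culture, and 189, 243, 150 and 205 after culture. The lowest sample before culture was 3905 and the highest after culture 243, so the groups lay far apart. The mean was 22.6-fold lower (log2 change −4.51, SE 0.119, limma adjusted p = 4.56e-12), and 0.989% of tested genes changed by more.

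Il1r1, the signalling receptor for IL-1, stood at 663, 704, 799, 748 and 523 before culture and at 367, 418, 512 and 455 after culture. Groups did not overlap, by a narrow margin between replicate 5 before and replicate 3 after culture. The mean was 1.57-fold lower (log2 change −0.65, SE 0.130, limma adjusted p = 5.92e-04). Il1rap, the accessory chain shared by IL-1 and IL-33 receptors, stood at 866, 903, 1111, 978 and 1097 before culture and at 454, 588, 459 and 559 after culture. It was 1.92-fold lower without overlap (log2 change −0.95, SE 0.109, limma adjusted p = 4.16e-06).

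Il1rl1, which encodes the IL-33 receptor ST2, was the steadiest member. It stood at 653, 745, 816, 774 and 874 before culture and at 715, 819, 621 and 809 after culture, with the groups spanning nearly the same range. The log2 change was −0.06 (SE 0.106, limma adjusted p = 0.624), and 94.0% of tested genes had a larger change. The table gives 1 value per gene, so the membrane and soluble forms made from Il1rl1, Il1rap and Il1r2 were not separated. Nor were the different transcripts of Il1rn.

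**Figure D2:**
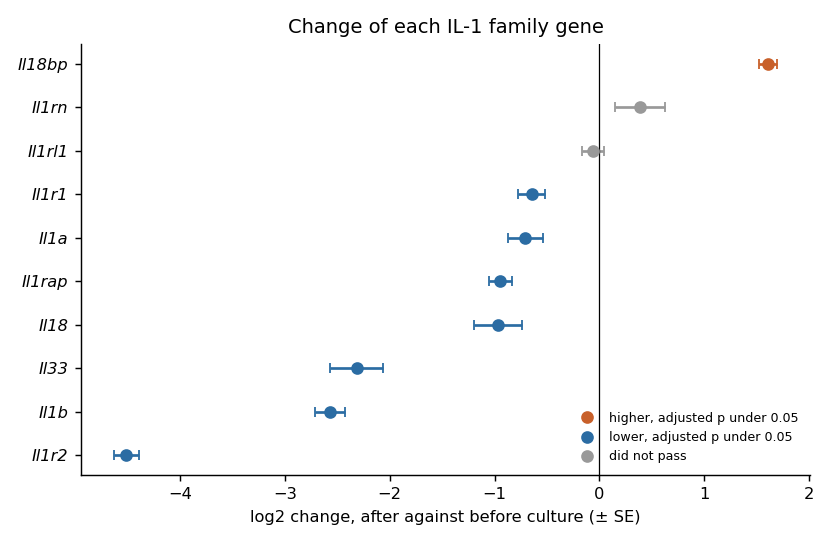
Log2 change of each gene after against before culture (horizontal axis, points with ± SE from limma), ordered from the highest to the lowest. Il18bp stands at 1.61 on the right, 7 genes lie between −0.65 and −4.51, and the intervals of Il1rn and Il1rl1 lie nearest to 0.

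Because normalized read counts scale with transcript length, genes were compared with each other as reads per kb of their longest transcript in GENCODE M21. Before culture Il1b led at 16890 ± 2549 per kb (SD, n = 5), followed by Il1r2 at 3139 ± 244 and Il1rn at 1834 ± 496. The ranges of these 3 genes did not overlap. Il1a (539 ± 92.8) and Il18 (423 ± 102) came next with overlapping ranges, then Il1rap (219 ± 24.5). Il1rl1 (146 ± 15.5) overlapped Il1r1 (118 ± 18.1), which overlapped Il18bp (109 ± 3.59), and Il33 was separate and lowest at 59.2 ± 11.4.

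After culture the order was different. Il1b (2872 ± 628, SD, n = 4) and Il1rn (2461 ± 958) overlapped at the top. Il18bp came next at 334 ± 27.5, overlapping Il1a (333 ± 81.8), which overlapped Il18 (220 ± 74.5). Il1r2 had moved from the second to the seventh place at 139 ± 27.0, level with Il1rl1 (140 ± 17.4) and overlapping Il1rap (114 ± 15.1). Il1r1 (75.2 ± 10.5) and Il33 (12.2 ± 5.64) stood below, each separate from its neighbours. With the median transcript length in place of the longest, Il1b stayed first in both groups, while Il1r1 and not Il33 was lowest before culture.

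The make-up of the receptors turned over more than that of the ligands. Of the summed reads per kb of the 4 receptor genes, Il1r2 made up 86.6 ± 0.988% before and 29.5 ± 2.93% after culture (SD). Il1rl1 went from 4.02 ± 0.346% to 29.9 ± 1.27%, Il1rap from 6.05 ± 0.422% to 24.3 ± 0.706% and Il1r1 from 3.28 ± 0.592% to 16.3 ± 3.45%. These larger shares were not gains in level. Per kb, the means of Il1rl1 (146 to 140), Il1rap (219 to 114) and Il1r1 (118 to 75.2) did not rise. Of the 4 agonist ligands, Il1b made up 94.2 ± 1.33% before and still 83.5 ± 2.94% after culture. These shares describe mRNA and were not tested.

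Ratios within a sample do not depend on the scaling between samples. They set an inhibitor against its ligands or, for the decoy, against the signalling receptor. Il1rn per kb over Il1a plus Il1b per kb was 0.0833, 0.100, 0.126, 0.102 and 0.109 before culture, and 0.723, 0.936, 0.544 and 0.814 after culture. The mean ratio was 7.25-fold higher after culture, and every sample after culture was above every sample before it, although Il1rn itself did not pass its test. Il1b supplied most of the denominator in both groups.

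The decoy ratio moved the other way. Il1r2 over Il1r1 was 27.5, 22.7, 23.7, 24.4 and 38.0 before culture, and 2.11, 2.38, 1.20 and 1.85 after culture, a mean 14.5-fold lower. Per kb, decoy reads thus exceeded those of the signalling receptor in all 9 samples, by a small margin after culture. That excess after culture depends on the lengths used. Undivided, Il1r2 (150 to 243) was below Il1r1 (367 to 512) in all 4 samples. Il18bp over Il18 was 0.233, 0.239, 0.305, 0.194 and 0.390 before culture, and 1.92, 1.32, 1.10 and 2.26 after culture, a mean 6.06-fold higher. Per kb, the binding protein was below its ligand in all 5 samples before culture and above it in all 4 after culture.

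**Figure D3:**
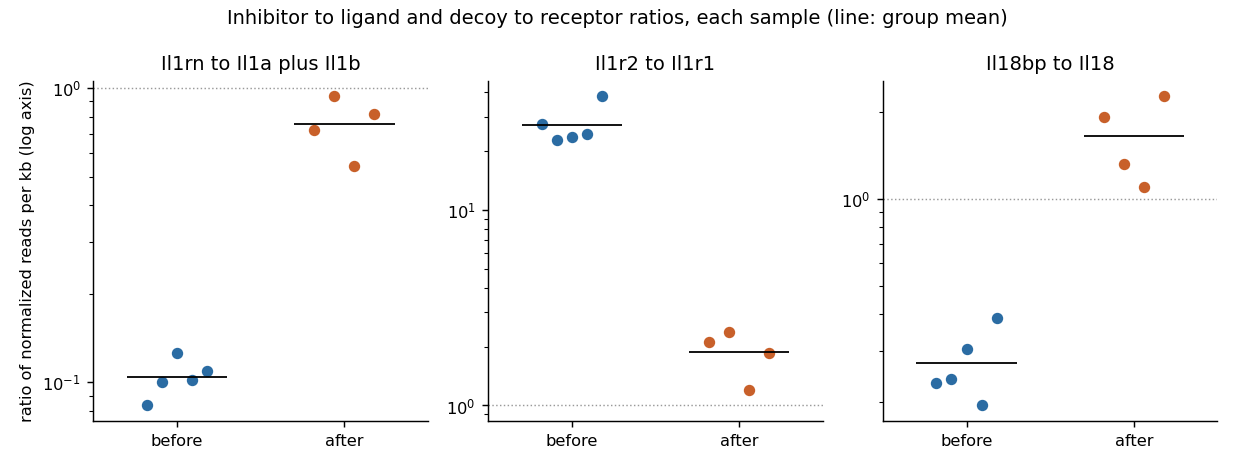
Ratio of normalized reads per kb in each sample on log axes, with a line at each group mean and a dotted line at 1. The ratios of Il1rn to Il1a plus Il1b and of Il18bp to Il18 are higher in every sample after culture, and the ratio of Il1r2 to Il1r1 is lower in every one.

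The IL-1 receptor genes lie side by side on chromosome 1, within 478 kb of GRCm38 (GENCODE M21), all on the plus strand. In genomic order they are Il1r2, Il1r1, Il1rl2, Il1rl1, Il18r1 and Il18rap. Among the members, Il1r2 spans chr1:40074079-40125231, Il1r1 chr1:40225080-40317257 and Il1rl1 chr1:40429570-40465415. The log2 changes of the 6 genes in genomic order were −4.51, −0.65, 0.10, −0.06, 0.37 and −1.01. The genes at both ends thus fell most, while the IL-36 receptor gene Il1rl2 (896 ± 94.0 before, 969 ± 173 after culture, limma adjusted p = 0.454) and Il1rl1 between them did not pass. Il1a and Il1b are neighbours on the minus strand of chromosome 2 within 71.5 kb (chr2:129299610-129309972 and chr2:129364570-129371139), and both fell. The other members lie apart, all protein coding: Il1rn at chr2:24336853-24351494, Il18 at chr9:50554827-50581840, Il33 at chr19:29925114-29960718 and Il1rap at chr16:26581704-26730117 on the plus strand, and Il18bp at chr7:102014885-102018690 on the minus strand. Antisense transcripts overlap 11.2% of the exon bases of Il1a (Gm14023) and 1.31% of those of Il1b (Il1bos). Gm14023 had 124 to 150 normalized reads before and 58.5 to 92.5 after culture, and whether the counting used strand is not given in the sources used here.

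Most other members of the family were read too little to be tested or did not pass. Of 11 further ligand and receptor genes, 5 were tested, of which 1 was higher and 1 lower. The share that passed was 40.0%, against 68.8% of all tested genes. Il18rap, the accessory chain of the IL-18 receptor, fell from 1211 ± 190 to 599 ± 70.2 (SD, log2 change −1.01, limma adjusted p = 5.10e-06). Il18r1, its ligand-binding chain, went from 1090 ± 134 to 1427 ± 305 with overlapping groups (log2 change 0.37, limma adjusted p = 0.0276), and this call was lost on leaving out any 1 of 6 samples (replicates 1, 2 or 3 before and replicates 1, 3 or 4 after culture). Sigirr, an inhibitory receptor, did not pass (449 ± 37.0 and 524 ± 77.9, limma adjusted p = 0.101). Il36a, Il36b, Il1f10, Il1rapl1 and Il1rapl2 were at or below 3 reads in all 9 samples.

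Signalling genes downstream of the receptors moved in both directions. Of 20 genes from the adaptor to NF-kB, 12 were higher and 3 lower, with a median log2 change of 0.24. The share that passed was 75.0%, against 68.8% of all tested genes. The 3 lower genes were Myd88, the adaptor that docks on the activated receptor (3729 ± 414 to 1475 ± 347, SD, log2 change −1.36, limma adjusted p = 1.17e-06), the kinase gene Irak2 (3101 ± 221 to 1740 ± 199, −0.84) and the NF-kB subunit gene Nfkb1 (12178 ± 638 to 7605 ± 510, −0.68). Among the higher genes, Ikbkg, the regulatory subunit of the IkB kinase, rose from 677 ± 64.8 to 2442 ± 190 (log2 change 1.85, limma adjusted p = 6.83e-10). Of its exon bases 5.15% are overlapped, most of all by G6pdx on the opposite strand, which itself was 2.01-fold higher. The ubiquitin ligase gene Traf6 rose from 2567 ± 123 to 4716 ± 328 (log2 change 0.88). Of the exon bases of Myd88, 11.3% are overlapped, most of all by Acaa1a.

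Genes for processing and release moved in both directions. Of 15 genes, 8 were higher and 2 lower, with a median log2 change of 0.37. The share that passed, 66.7%, was near the 68.8% of all tested genes. Of 4 inflammasome sensor genes in the list, 2 were lower, Nlrc4 was higher (346 ± 28.9 to 485 ± 68.2, SD) and Aim2 did not pass (991 ± 81.5 and 1046 ± 116), the latter pair named after their values were seen. The 2 lower genes changed by more: Nlrp3 fell 14.9-fold from 9698 ± 975 to 650 ± 229 (SD, log2 change −3.97, limma adjusted p = 9.22e-10) and Nlrp1b fell 2.71-fold from 1246 ± 199 to 459 ± 31.3 (−1.42). Casp1, the protease that cuts the IL-1β and IL-18 precursors, rose 2.68-fold from 368 ± 25.8 to 986 ± 57.0 (log2 change 1.42, limma adjusted p = 6.20e-09). Gsdmd, which encodes the pore through which mature IL-1β leaves the cell, rose 2.01-fold from 1178 ± 112 to 2370 ± 152 (1.01).

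Genes that IL-1 and other NF-kB stimuli are known to induce were more often lower than higher. Of 18 genes, 17 were tested, of which 11 were lower and 2 higher, with a median log2 change of −0.86. The share that passed was 76.5%, against 68.8% of all tested genes. The chemokine gene Cxcl2 fell from 14165 ± 3467 to 708 ± 250 (SD, log2 change −4.35, limma adjusted p = 1.29e-09) and the nuclear IkB gene Nfkbiz fell 10.8-fold from 16909 ± 785 to 1564 ± 136 (−3.44). The feedback inhibitors Tnfaip3 (32369 ± 1912 to 6264 ± 336, log2 change −2.37) and Zc3h12a (6189 ± 291 to 1767 ± 130, −1.81) fell too. The 2 higher genes were Birc3, an inhibitor of apoptosis (4522 ± 332 to 10348 ± 1002, 1.19), and the mitochondrial superoxide dismutase gene Sod2 (2299 ± 227 to 4106 ± 1049, 0.81). Ccl20 was read too little to be tested.

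**Figure D4:**
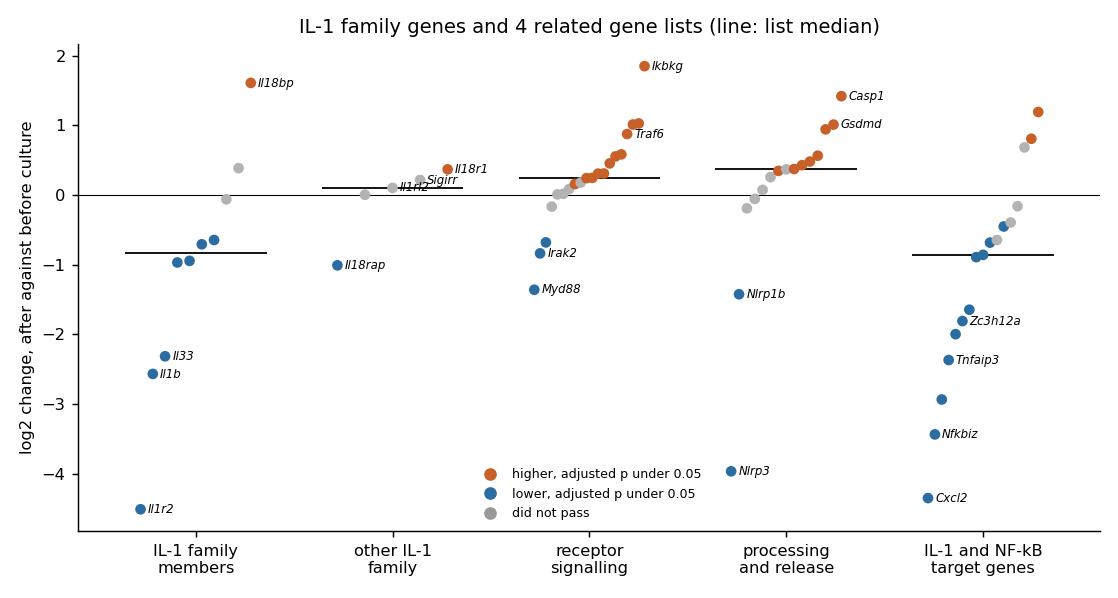
Log2 change after against before culture (vertical axis) of the 10 IL-1 family genes and of 4 related gene lists, each point a tested gene and each line a list median. Medians are −0.83 for the 10 genes, 0.10 for other family genes, 0.24 for signalling, 0.37 for processing and release and −0.86 for target genes.

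Likeness of pattern was described by Pearson's r of log2 levels across the 9 samples, among genes with a mean of at least 100. For Il1b the closest of 11785 genes were Cxcl2 (r = 0.999), Socs3 and Cxcl10 (both r = 0.997). Among the genes most like Il1r2 were Trib1 (r = 0.9996) and Inpp4a (r = 0.9993). Il18bp was most like Adgrg6 (0.998), Pfkfb3 and Socs2 (both 0.997). For Il1rl1, which barely moved between groups, the highest values were lower, at 0.927 for Prkx, 0.902 for Dhrs9 and 0.902 for Ccr3. All samples fall into 2 groups, so these values mainly reflect the step between them.

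Markers of other cell types changed between the groups as well. The counts of markers given from here on stand beside 34.6% lower and 34.2% higher among all tested genes. Of 10 neutrophil markers 8 were tested, of which 7 were lower after culture and 1 higher, and Ly6g was at 0 in all 4 samples after culture. The higher one was Mmp8 (401 ± 93.4 to 9876 ± 3673), and the list summed to 13200 to 22612 before and 6917 to 14839 after culture. Without Mmp8, a split made after its value was seen, the sum was 12815 to 22059 before and 824 to 1701 after culture, a mean 13.5-fold lower. Trem1, an activating receptor of neutrophils and monocytes, went from 5047 ± 896 to 43.2 ± 12.7, and the receptor gene Csf3r from 5352 ± 1265 to 965 ± 245. Neutrophils are known to express Il1b, Il1r2 and Il1rn, and the part of these cells in the values of those genes was not tested.

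Il33 and Il18 were lower after culture, as were most lung epithelial markers. Of 12 such markers 11 were lower and 1 higher (Foxj1), and none was at 0 throughout a group. Napsa, which encodes an aspartic protease, went from 7835 ± 548 to 1789 ± 181. The list summed to 27757 to 47414 before and 6409 to 10879 after culture. The highest sum of each group was in replicate 4 before culture and replicate 3 after culture, the same samples in which Il33 and Il18 were highest. Both samples carry library number 4, and no label gives the meaning of this number. The surfactant gene Sftpc was highest of its group in these samples (16826 and 3606), while Napsa was lowest in them (7064 and 1528). With both of these libraries left out, a choice made after seeing the data, the log2 change was −2.48 for Il33 and −1.05 for Il18. The other samples did not keep the order of the sums. Replicate 4 after culture had a higher sum (6965) than replicates 1 and 2 (6409 and 6539) but the lowest Il33 and Il18. Replicate 5 before culture had the lowest sum and the lowest Il18, but only replicate 4 had more Il33 in that group. Endothelial markers (10 of 10 lower, sums of 26120 to 37902 before and 3387 to 4500 after culture) and fibroblast markers (10 of 10 lower, 16910 to 30492 and 2437 to 4767) fell as well, and none of either list was at 0 throughout a group. The part of these cells in the change of Il33, Il18 and Il1r1 was not tested.

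Within each group, Il1rn was highest in the sample where macrophage markers were highest. The summed level of 12 monocyte and macrophage markers was highest in replicate 3 before culture (77637) and replicate 2 after culture (52802), which were also the highest samples for Il1rn. It was lowest in replicate 4 before culture (49420) and replicate 3 after culture (28932), which held the second lowest and the lowest Il1rn value of their groups. The highest sums share library number 3 and the lowest sums library number 4. Elsewhere the order was not kept. Replicate 5 before culture had the second highest Il1rn (5565) with a sum of 61126, above replicate 4 only. Replicate 1 before culture had the lowest Il1rn (3415) with a sum of 66971. After culture, replicate 4 had a higher sum than replicate 1 (39834 and 39254) but less Il1rn (5110 and 6611). Of the 12 monocyte and macrophage markers 6 were lower and 6 did not pass, and none was at 0 in any group. Csf1r, the receptor for the macrophage growth factor CSF1, stood at 11801 ± 2414 before and 14883 ± 3908 after culture. Neutrophil markers were also set beside Il1rn. Before culture their sum without Mmp8 was highest in replicates 3, 5 and 2 (22059, 21074 and 15699), the 3 highest samples for Il1rn in the same order. Replicates 1 and 4 were in the reverse order (sums of 13345 and 12815, Il1rn at 3415 and 3587). After culture the sum without Mmp8 was 1701, 1268, 1254 and 824 in replicates 2, 1, 4 and 3, which was the order of Il1rn. With Mmp8 kept, the sum after culture was highest in replicate 4 (14839). Replicates 2, 1 and 3 followed (14104, 8691 and 6917), which was not the order of Il1rn. The part of monocytes, macrophages and neutrophils in the Il1rn values was not tested.

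**Figure D5:**
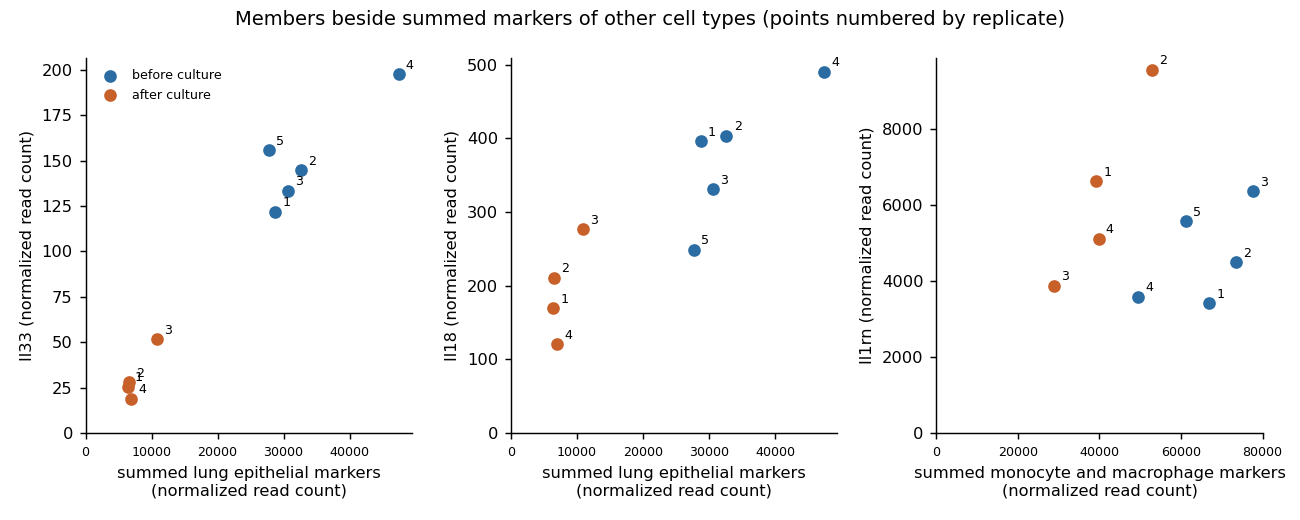
Normalized read count of Il33, Il18 and Il1rn (vertical axes) against the summed level of lung epithelial markers or of monocyte and macrophage markers (horizontal axes, normalized read counts), with 1 point per sample numbered by replicate. Replicate 4 before and replicate 3 after culture hold the highest epithelial sum, Il33 and Il18 of their groups.

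ST2 is known on group 2 innate lymphoid cells, regulatory T cells and mast cells, so their markers were set beside Il1rl1. Of 12 T cell and innate lymphoid markers 3 were higher and 4 lower after culture, none was at 0 throughout a group, and the sum went from 9614 to 12056 before to 19917 to 23494 after culture, led by Il7r (2611 ± 412 to 13276 ± 1113). Without Il7r, a split made after its value was seen, the sum was 7337 to 8758 before and 7500 to 9058 after culture. Gata3, a regulator of type 2 lymphoid cells, was lower (669 ± 30.5 to 408 ± 49.0), as was the cytokine gene Il13 (24.1 ± 10.3 to 7.21 ± 3.13), and the regulatory T cell gene Foxp3 did not pass (626 ± 87.3 and 618 ± 156). Of 8 mast cell and basophil markers 3 were tested. Kit, also a dendritic cell gene, stood at 7766 ± 485 and 9576 ± 660 and made up most of the sum of 10217 to 11290 before and 8760 to 10303 after culture. Hdc, which encodes the enzyme that makes histamine, was 76.0-fold lower after culture (2874 ± 702 to 37.8 ± 12.6, log2 change −6.24, limma adjusted p = 4.45e-11). Cpa3, the mast cell carboxypeptidase, was near the floor (22.6 ± 7.86 and 12.1 ± 7.28), and Fcer1a was at or below 3 reads in every sample. Ms4a2, Mcpt4, Mcpt8 and Tpsb2 were read too little to be tested. Which cells the Hdc reads came from was not tested. The part of these cells in the Il1rl1 values was not tested.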

How the data were processed

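RNA-seq of 9 samples was analysed. The deposited table gives normalized read counts (unit: signal), made by the authors as whole reads divided by 1 factor per sample, and 100% of values were whole multiples of 1 read (relative tolerance 1e-06). DESeq2 and GRCm38 are named in the submitters' processing notes. Aligner, counter, annotation and strand setting are not given in the sources used here. Rows without a symbol (3782 of 49317) were left out and held 3.87 to 10.9% of reads. Samples were grouped by title. Reads carry no molecular identifiers here, so the spread between replicates served as the error.

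Genes with a mean of at least 10 entered a two-sided limma fit (version 3.58.1, R 4.3.3) of log2(value + 1) on group alone with a mean-variance trend and Benjamini-Hochberg adjustment over all 18202. Log2 changes are on this scale, which understates low genes, and folds are ratios of group means. The scripts were tested on simulated counts. Lengths and overlaps came from GENCODE M21, which holds 96.5% of tested genes. Promoters came from RefSeq GRCm38.p6. No member shared more than 0.0571% of its 50-base windows with another gene.

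All 10 members, up to 4 genes per pathway list with the smallest adjusted p, those against the list median and up to 3 markers per list with the highest mean were eligible to be named. Foxj1, Ly6g, Fcer1a, Gata3, Il13, Foxp3, Nlrc4, Aim2, Flt3, Batf3 and Zbtb46 lie outside this rule and were chosen after their values were seen. The same holds for genes named for too few reads or for overlap with another gene. The members and lists were chosen with earlier results of these data known. The 3 most alike genes per member by Pearson's r were eligible too, and 1 of them is not reported here. On the recovered reads edgeR called 12562 genes and DESeq2 12663 (its adjusted p was NA for 3), against 12524 with limma. Alternatives covered pseudocounts of 0.5 and 8, no filter or a minimum mean of 50, other scalings, edgeR 4.0.16 and DESeq2 1.42.0 on recovered reads, replicate blocks, a GC and length correction and leaving out replicates.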

Additional observations from a re-analysis of the deposited data

How the results depend on the processing

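The count of 7 lower members was the same under all 13 other settings listed with the processing and in the 9 fits without 1 sample each, and so were the calls of Il1a, Il1b, Il18, Il33, Il1r1, Il1r2, Il1rap and Il18bp. The exceptions were Il1rn and Il1rl1. Il1rn had a log2 change of 0.38 and passed with the replicate block by library number (limma adjusted p = 0.0225), and of 0.51 with both libraries of the highest epithelial marker sum left out (limma adjusted p = 0.0437, chosen after seeing the data). Each of these gave 2 higher members instead of 1, and counts were 1 to 2 with single samples left out. In those 9 fits the Il1rn change ran from 0.16 to 0.59, and its limma adjusted p from 0.0225 to 0.899 over all alternatives. Il1rl1 had a log2 change of 0.0197 without replicate 3 after culture (range −0.12 to 0.0197) and of 0.0223 with both libraries left out, and passed in none of the fits. The cause of these changes was not tested. Quantile normalization gave 2 higher genes among the other family members, and leaving out single samples gave 0 to 2. The median transcript length gave mean ratios of 35.4 before and 2.45 after culture for Il1r2 to Il1r1, and 0.429 and 2.60 for Il18bp to Il18, since only the length divided by differs. Titles and library names number the samples differently. Replicates 1, 2, 3 and 4 after culture carry library numbers 1, 3, 4 and 5, while before culture both numbers are the same. Deviations from group means correlated at 0.0807, 0.247, 0.349 and 0.0447 between samples with the same library number (1, 3, 4 and 5), which is too low in 2 of 4 pairs to treat the numbers as a pairing. Each sample after culture, though not each before, correlated best with its own library number, as a hint from the data and not the design. The replicate block by library number called 12865 genes and that by title number 11656, against 12524 without a block.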
